A study of Mus musculus with 2 samples.

Results

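Cardiac group 2 innate lymphoid cells (ILC2) were examined among the CD45+ leukocytes of the mouse heart. They were picked from scRNA-Seq data by the transcripts they carried. A barcode was called an ILC2 when its unique molecular identifiers (UMIs, which count RNA molecules) for Gata3, Il1rl1, Calca, Hlf, Il13, and Il5 summed to at least 6. It could hold at most 3 UMIs of C1qa, C1qb, and C1qc, at most 1 of Cd3d and Cd3e, at most 2 of Cd79a, Cd79b, and Ms4a1, and under 1% of UMIs of S100a8 and S100a9. These caps keep out macrophages, T cells, B cells, and neutrophils. In all, 292 of 11078 kept cells met the rule, 172 in the control library and 120 in the ISO library. Barcodes were kept if they held over 500 but under 6000 genes, with mitochondrial transcripts below 25% of UMIs.

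The mice were female C57BL6 animals of 8 to 16 weeks, given 1 intraperitoneal injection of isoproterenol (ISO) at 200 mg/kg, a beta-adrenergic agonist used here as a model of Takotsubo syndrome (TTS), or of vehicle. The descriptions give the ISO dose for both samples, so the control was identified by its title and its vehicle by the study's methods. Hearts were taken at 24 hours, 3 hearts were pooled per group, and 15000 sorted cells entered the 10x Genomics droplet system. There was 1 library per group and no replicate check, so the differences below compare those libraries, without a test, and all intervals cover counting error only.

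ILC2 are tissue-resident lymphocytes without antigen receptors that need the transcription factor GATA3. They respond to alarmins from damaged tissue, among them IL-33, whose receptor ST2 is encoded by Il1rl1, and they release type 2 cytokines that act on eosinophils, macrophages, and stroma. Neuropeptides also act on them, and they can make calcitonin gene-related peptide (CGRP), which Calca encodes together with calcitonin.

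Of the rule genes, Calca, Il5, and Il13 encode secreted products. Il5 (chromosome 11, 53720794 to 53725106) and Il13 (chromosome 11, 53631324 to 53634702) lie in the type 2 cytokine cluster, with Csf2 on the same chromosome at 54247271 to 54249667. Calca lies on chromosome 7 at 114631478 to 114636357 (GENCODE release 21 on GRCm38). The 250 bases before the start of each (RefSeq, GRCm38.p6) are shown because these genes differed between the libraries in opposite directions while they share GATA3-expressing cells. The windows are chr11:53720544-53720793 on the plus strand for Il5, chr11:53634703-53634952 on the minus strand for Il13, and chr7:114636358-114636607 on the minus strand for Calca. Capitals mark a GATA motif on either strand, which was searched with the letters AGATAA and with the letters AGATAG, and with a leading T, as in TGATAA and as in TGATAG.
Il5: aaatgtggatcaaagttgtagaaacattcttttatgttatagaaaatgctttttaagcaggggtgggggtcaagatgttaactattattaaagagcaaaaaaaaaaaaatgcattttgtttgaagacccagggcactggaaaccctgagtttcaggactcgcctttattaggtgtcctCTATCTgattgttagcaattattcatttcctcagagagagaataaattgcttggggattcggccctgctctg
Il13: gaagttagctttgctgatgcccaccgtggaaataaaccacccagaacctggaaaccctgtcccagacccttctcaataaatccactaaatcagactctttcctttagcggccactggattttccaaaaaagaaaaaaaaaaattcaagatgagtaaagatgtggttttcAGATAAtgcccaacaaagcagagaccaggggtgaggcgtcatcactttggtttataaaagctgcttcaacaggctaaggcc
Calca: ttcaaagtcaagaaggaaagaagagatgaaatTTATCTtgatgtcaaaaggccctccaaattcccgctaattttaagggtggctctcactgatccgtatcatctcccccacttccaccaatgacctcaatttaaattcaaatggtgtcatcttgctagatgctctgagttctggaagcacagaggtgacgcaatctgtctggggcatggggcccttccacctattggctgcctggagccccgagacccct
Each window held 1 match, which began 72 bases before the start in Il5, 81 in Il13, and 218 in Calca. Of 32851 promoter windows of this length, 26.5% held at least 1 such match, so a match is common and describes letters, not a bound site.

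Median depth over kept cells was 4790 UMIs for the control library against 8537 for the ISO library. The ILC2 had a median of 5612 UMIs (total 1039935) and 3934 UMIs (total 812821), respectively. The libraries shared 15 barcodes, and 0 of these were ILC2. No doublet caller was run, and the caps removed 197 control and 115 ISO barcodes that carried at least 6 UMIs of the rule genes. The libraries differed widely in Gm26924, which took 60195 UMIs per 1000000 (CPM) of control and 13815 CPM of ISO ILC2, and 50576 and 10331 CPM of all other kept cells.

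ILC2 made up 3.05% of kept control cells (172 of 5641, exact Clopper-Pearson 95% interval 2.62 to 3.53) and 2.21% of kept ISO cells (120 of 5437, 1.83 to 2.63). The intervals overlapped slightly, and the log2 ratio of the shares was -0.47 (-0.80 to -0.13). Among lymphocytes of the innate and T lineages the order was the opposite. ILC2 were 23.6% of ILC2, T cells, and NK cells together in the control library and 53.8% in the ISO library. T cells and NK cells, picked by their own marker UMIs, numbered 157 and 401 in the control library and 51 and 52 in the ISO library. So the ILC2 were fewer per kept leukocyte and a larger part of the T, NK, and ILC2 total after ISO.

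Part of the ISO ILC2 carried transcripts of a second lineage. A list of 24 macrophage and monocyte genes took at least 2% of UMIs in 35 of 120 ISO barcodes (29.2%, 21.2 to 38.2) and in 2 of 172 control barcodes (1.16%, 0.141 to 4.14). Between 1% and 2% lay 4 ISO barcodes and 1 control barcode, and between 2% and 3% lay 5 and 1. The 35 mixed ISO barcodes had a median of 11576 UMIs. They held 5516 CPM of Spp1 and 11783 CPM of Lyz2, near the 5496 and 13009 CPM of ISO macrophages, beside 481 CPM of Gata3 and 200 CPM of Il1rl1. A further 3 control and 2 ISO barcodes held 171 to 985 UMIs of 8 mast cell and basophil genes, where all other ILC2 held at most 1 UMI. Mast cells and basophils also carry Gata3 and Il1rl1. The 167 control and 83 ISO barcodes with neither pattern are called unmixed ILC2 below, a name that covers these patterns only. Single unmixed barcodes held up to 4.16% (control) and 4.02% (ISO) of UMIs from a dendritic cell list. For a fibroblast and endothelial list the highest shares were 0.160% and 2.92%. The 2% limit was set after the data were seen. Values are given for unmixed ILC2 unless stated, with those of all ILC2 beside them for some genes and lists only.

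**Figure D1:**
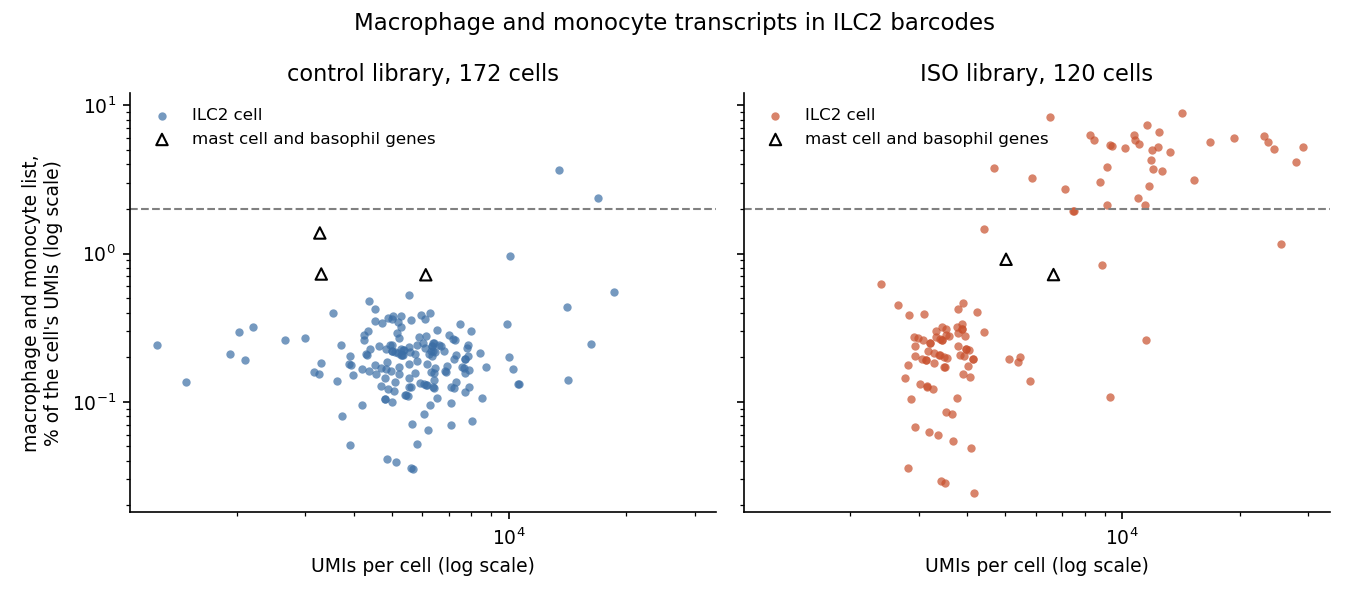
Each point is 1 ILC2 barcode, with its UMIs on the x axis and the share of a macrophage and monocyte gene list in percent of its UMIs on the y axis, both on log scales. The dashed line is 2%, above which lie 2 control and 35 ISO barcodes, and triangles mark the 3 control and 2 ISO barcodes with mast cell and basophil transcripts.

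The unmixed ILC2 share was 2.96% in the control library (2.53 to 3.44) and 1.53% in the ISO library (1.22 to 1.89), with a log2 ratio of -0.96 (-1.33 to -0.58). Their median depth was 5608 UMIs and 1872 genes in the control and 3525 UMIs and 1458 genes in the ISO library. Depth was thus lower in ISO ILC2, although the ISO library as a whole was deeper. Unmixed NK cells had medians of 3667 and 4170 UMIs, T cells 5184 and 3483, and B cells 3723 and 3356. These were 401 control and 29 ISO NK cells, 155 and 21 T cells, and 849 and 29 B cells. The levels and list medians of NK, T, and B cells below come from them.

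The markers of the label were first compared with other cells. Gata3 was at 1609 CPM in control ILC2 (exact Poisson 95% interval 1531 to 1690) and 2041 CPM in ISO ILC2 (1893 to 2197), against 61.9 and 17.4 CPM in all other kept cells. Il1rl1 was at 889 CPM (831 to 949) and 882 CPM (786 to 986), against 43.5 and 10.6 CPM. Both chose the cells, so their height over other cells is given by the rule. Genes outside the rule are a check of the label that the rule did not use. Il2ra, the high-affinity chain of the IL-2 receptor, was at 403 and 364 CPM, against 16.2 and 6.42 CPM in other cells. Csf2, which encodes GM-CSF, was at 454 and 639 CPM, against 17.6 and 3.39 CPM. Rora, a nuclear receptor that ILC2 development requires, was at 1401 and 1116 CPM, against 73.7 and 20.5 CPM. Il7r was at 757 and 795 CPM, against 96.2 and 72.3 CPM. All 4 were thus several times higher in ILC2 than elsewhere in both libraries. Of 3619 genes with at least 50 UMIs, 148 (4.09%) were at least 4-fold higher in unmixed ILC2 than in other kept cells of both libraries.

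Some defining genes of other lineages were at or near 0. Other genes of the T cell, NK and ILC1, and dendritic cell lists were present. Cd3d was at 3.01 CPM in control and 0 in ISO ILC2, Cd3e at 1 and 0 CPM, and Cd4, Cd8a, and Foxp3 at 0 in both, where Cd3d and Cd3e are capped by the rule. Cd3g, which the rule does not cap, was at 94.3 and 63.6 CPM in 38 and 12 cells, and the T cell receptor constant genes Trbc2 (342 and 289 CPM) and Trbc1 (236 and 124 CPM) were present. The T cell list of 16 genes summed to 1140 and 804 CPM, with 5 and 7 genes at 0, and the NK and ILC1 list of 15 genes to 899 and 1188 CPM, with 0 and 2 at 0. The NK genes Ncr1 and Eomes were at 9.03 and 4.01 CPM in the control and at 0 in ISO ILC2, and Il22, Il17a, Il17f, Il23r, and Ccr6, which mark ILC3, were at 0 in both. The summed macrophage and monocyte list, which includes Arg1 and Ccr2 that ILC2 also express, was 2154 CPM in control and 3897 CPM in ISO unmixed ILC2, against 3033 and 29766 CPM in all ILC2. The dendritic cell list summed to 1303 and 4487 CPM, the neutrophil list to 22.1 and 283 CPM, and the fibroblast and endothelial list to 59.2 and 856 CPM. The part of these residual transcripts in the differences below was not tested.

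**Figure D2:**
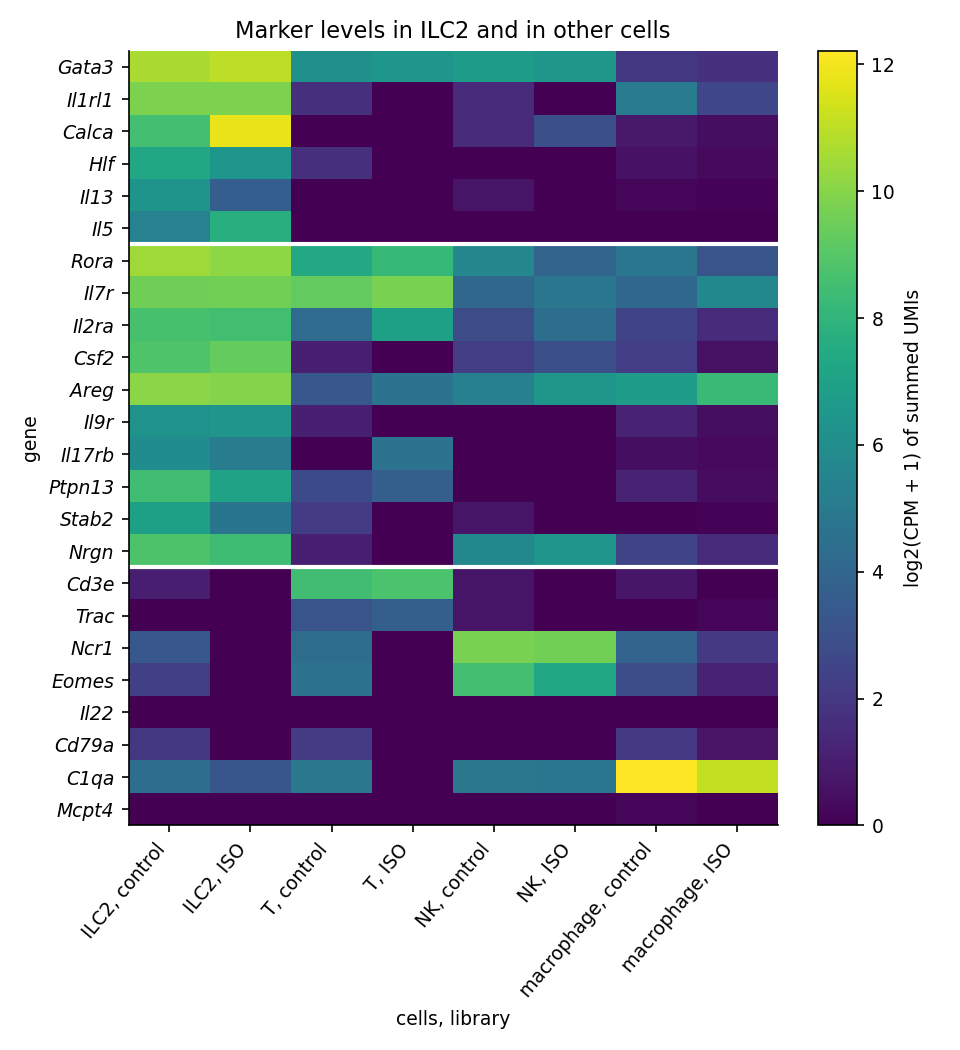
Rows are genes and columns are cells of each library, with color giving log2(CPM + 1) of summed UMIs. Gata3, Il1rl1, Rora, Il7r, and Il2ra are high in the ILC2 columns, and Cd3e is at 1 CPM in control ILC2 and at 0 in ISO ILC2.

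The genes that stood highest over all other cells in both libraries included Ptpn13, a phosphatase, at 353 CPM in control and 130 CPM in ISO ILC2 against 10.4 and 2.27 CPM elsewhere. Stc2, a secreted glycoprotein, was at 110 and 52.0 CPM against 2.98 and 0.769 CPM. Nrgn, known from neurons as a calmodulin-binding protein, was at 450 and 344 CPM against 17.6 and 4.10 CPM. Such genes mark ILC2 here without having been used to choose them. Dach2, Npnt, Igsf5, Pard3, Cntn1, Ccr4, and Il17rb, a subunit of the IL-25 receptor, belonged to the same top 20. Ccr4 was at 40.1 and 31.8 CPM against 1.33 and 0.293 CPM. Il17rb was at 60.2 and 34.7 CPM against 2.39 and 0.805 CPM. The mast cell genes Tpsb2, Cpa3, and Mcpt4 also stood in that list for all ILC2, and unmixed ILC2, which leave out the 5 barcodes named above, had 1 and 2 UMIs of Cpa3 and none of the others.

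At the edge of the rule, 6 control and 10 ISO cells had exactly 6 UMIs of the rule genes, and 5 and 6 cells that met the caps had 5. A further 29 control and 28 ISO cells that met the caps had 3 to 4. The summed level of Rora, Il7r, Areg, Il2ra, Lmo4, and Csf2 was 4190 CPM in control cells with 6 UMIs, 4776 CPM with 5, and 415 CPM with 3 to 4, against 5336 CPM with 10 or more. In the ISO library these levels were 2308, 2056, 1904, and 3832 CPM. Cells just inside and just outside the threshold were thus near each other in this sum, also with 3 to 4 UMIs in the ISO library. Single genes were not, since control cells with 6 and 5 UMIs had Csf2 at 0 and 606 CPM and Areg at 1550 and 569 CPM, from 6 and 5 cells. The median sum of rule gene UMIs was 16 in control and 14 in ISO ILC2, with ranges of 6 to 82 and 6 to 193. There was no UMI of Gata3 in 4 and 5 ILC2, and none of Il1rl1 in 6 and 13.

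Calca showed the largest difference among the rule genes. Unmixed control ILC2 had 377 Calca UMIs in 53 of 167 cells, or 378 CPM (341 to 418), and ISO ILC2 had 1228 UMIs in 52 of 83 cells, or 3550 CPM (3354 to 3754). The level was 9.38-fold higher in ISO ILC2, a log2 ratio of 3.23 (3.06 to 3.40). Calca helped choose the cells, so it was also read in cells chosen without it, where the levels were 365 and 3733 CPM and the log2 ratio 3.35. Over all ILC2, mixed barcodes included, the levels were 363 and 1773 CPM and the log2 ratio 2.29. NK cells had 1.85 and 6.80 CPM, macrophages 0.774 and 0.386 CPM, and T cells none. The compared cells were picked with at most 2 UMIs of the rule genes, Calca included, so their low Calca level is given by that choice.

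The Calca transcripts were uneven among ILC2. In the ISO library the median cell had 5.06 UMIs per 10000, the upper quartile 39.9, and the highest cell 506, and 7 cells held 50% of the UMIs. In the control library the median cell had 0, the upper quartile 3.53, and the highest 59.3, and 13 cells held 50%. When each cell was thinned to 1000 UMIs, 16.8% of control ILC2 (11.4 to 23.3) and 50.6% of ISO ILC2 (39.4 to 61.8) had a Calca UMI, against 31.7% and 62.7% without thinning. Thinned B cells, which should lack the gene, had 0 of 849 and 0 of 29, which allows shares of up to 0.353% and 10.3%. The same limit on rule genes applied to these B cells. In cells chosen without Calca the thinned shares were 18.5% (12.9 to 25.4) among 162 cells in the control library, against 46.7% (35.0 to 58.6) among 75 in the ISO library. The share of cells with Calca and its summed level were therefore higher in ISO ILC2 also where Calca had not chosen them. The counts do not separate calcitonin from CGRP transcripts of Calca.

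Il5, the eosinophil growth factor, was also higher in ISO ILC2, and Il13 was lower. Il5 was at 41.1 CPM (29.5 to 55.8) in control ILC2, against 199 CPM (155 to 252) in ISO ILC2, with a log2 ratio of 2.27 (1.70 to 2.87). It rested on few cells, 20 of 167 and 17 of 83, and 1 ISO cell held 42.0% of the UMIs. With a limit of 1% in place of 2% for macrophage transcripts the ratio was 1.54. Over all ILC2 it was 1.33, from 39.4 and 99.7 CPM. Il13, which drives mucus and alternative macrophage activation, was at 78.2 CPM (61.9 to 97.7) in control ILC2, against 11.6 CPM (3.15 to 29.6) in ISO ILC2, with a log2 ratio of -2.60 (-4.67 to -1.34). It had UMIs in 13 control cells, 1 of which held 42.3% of them, and in 1 ISO cell. Il13 and Il5 were thus low-frequency transcripts with opposite directions. In cells thinned to 1000 UMIs Il5 was found in 3.59% (1.33 to 7.66) and 8.43% (3.46 to 16.6) of ILC2, and at 2000 UMIs in 3.05% (0.997 to 6.97) and 13.3% (6.81 to 22.5). A further random draw at 2000 UMIs gave 7.32% and 18.1%, so the Il5 shares vary with the draw. Il13 was found in 2.40% and 1.20% at 1000 UMIs, from 4 and 1 cells, and in 4.27% and 1.20% at 2000 UMIs. Il4, the third type 2 cytokine of that cluster, was at 29.1 and 20.2 CPM from 29 and 7 UMIs, and Il9 had 0 and 1 UMI.

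Among the other secreted products, some were near their control level and others were several times lower. Areg, an epidermal growth factor receptor ligand that ILC2 release in tissue repair, was at 1096 CPM (1032 to 1163) in control ILC2, against 992 CPM (889 to 1102) in ISO ILC2. Csf2 was at 454 CPM (414 to 498) and 639 CPM (557 to 729), from 68 and 23 cells, and 1 control cell held 36.6% of its UMIs. Its log2 ratio was 0.49 in unmixed and -0.18 in all ILC2. The direction for Csf2 therefore depends on which barcodes are counted. The chemokine Ccl1 was at 105 CPM (86.2 to 128) in 24 control cells and 17.3 CPM (6.37 to 37.8) in 1 ISO cell, a log2 ratio of -2.49. Bmp2 was at 70.2 and 14.5 CPM (-2.15), and Tgfb1 at 324 and 165 CPM (-0.97). All 3 were thus lower in ISO ILC2. Furin, a protease that matures secreted precursors, was at 967 and 532 CPM (-0.86). Il2 was at 41.1 and 5.78 CPM from 41 and 2 UMIs.

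Among 23 tested effectors in all ILC2, 11 were at least 2-fold higher and 6 at least 2-fold lower in ISO, where 13.5% and 8.06% of 4800 tested genes were. In unmixed ILC2 the numbers were 4 and 3 of 18, against 5.22% and 5.28% of 3619 genes. The 4 were Calca, Il5, Cxcl2, and Ccl17, and the 3 were Il13, Ccl1, and Bmp2. Calca, Il5, and Il13 are rule genes, so these counts draw in part on genes that chose the cells. The chemokine Cxcl2 shows what the mixed barcodes carry. It was at 388 and 9939 CPM in all ILC2 and at 315 and 2006 CPM in unmixed ILC2, and macrophages had 6547 and 16464 CPM. Thinned B cells had a Cxcl2 UMI in 7.66% of control and 31.0% of ISO cells, against 18% and 47.0% of unmixed ILC2, so the ISO value of ILC2 has a high background. Tnf was at 99.0 and 594 CPM in all ILC2 and at 88.3 and 92.5 CPM in unmixed ILC2. Ccl17 was listed in 2 ISO cells only, 1 of which held 86.5% of its UMIs.

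**Figure D3:**
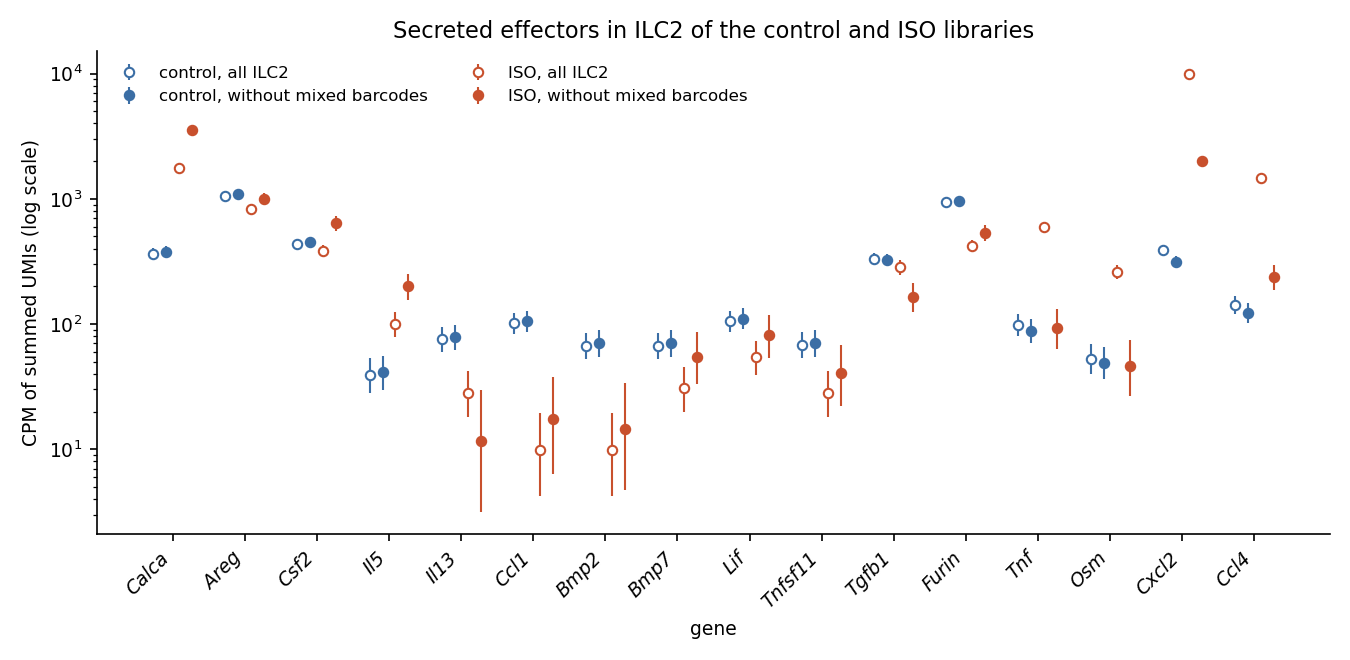
Levels of secreted effectors in CPM of summed UMIs on a log scale for control and ISO ILC2, with filled points for unmixed ILC2, open points for all ILC2, and bars for exact Poisson 95% intervals. Calca and Il5 lie higher and Il13 and Ccl1 lower in ISO ILC2 in both versions, and Csf2 changes its direction between them.

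Calca was also read together with the other effectors in single cells. After thinning to 2000 UMIs, 42 of 164 control and 49 of 83 ISO ILC2 had a Calca UMI. Areg was found in 28 of the 42 Calca-positive control cells (66.7%) and in 44.3% of the others, and in 17 of the 49 ISO cells (34.7%) and 41.2% of the others. Csf2 was found in 28.6% of Calca-positive and 19.7% of other control cells, and in 22.4% and 23.5% in the ISO library. Areg was thus found more often in Calca-positive cells of the control library, and in the ISO library the shares lay close together. Arg1, which encodes the arginine-degrading enzyme that ILC2 hold at rest, was found in 33.3% of Calca-positive and 41.0% of other control cells, and in 34.7% and 58.8% in the ISO library. Cells with a UMI of both Il13 and Il5 numbered 1 in each library. The cells share depth and library, so these shares are descriptions.

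Most receptors for alarmins and cytokines differed by less than 2-fold. In unmixed ILC2, 1 of 21 tested cytokine and costimulatory receptors was at least 2-fold higher in ISO and 1 at least 2-fold lower. Over all tested genes the shares were 5.22% and 5.28%. The list had a median log2 ratio of 0.00, where the median over all tested genes was 0.08. Crlf2, a subunit of the TSLP receptor, was at 71.2 and 145 CPM (log2 ratio 1.03, 0.47 to 1.56). In cells thinned to 1000 UMIs it was found in 9.58% and 10.8%, against 7.07% and 10.3% of B cells. At 2000 UMIs the shares were 15.2% and 22.9%, against 13.5% and 20.7% of B cells. Il27ra, whose ligand restrains ILC2, was at 89.3 and 26.0 CPM (-1.71, -2.95 to -0.79). Il1rl1, a rule gene, had a log2 ratio of -0.01 (-0.20 to 0.18), and of -0.07 (-0.28 to 0.13) in cells chosen without it. Il7r had 0.07 and Il2ra -0.14. Tnfrsf18, which encodes the costimulatory receptor GITR, was at 406 and 619 CPM (0.61). In all ILC2, Il1rl1 had a ratio of -0.73, and the mixed ISO barcodes had 200 CPM of it.

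Receptors for neural and lipid signals were detected in part. Ramp1 and Ramp3, which pair with the calcitonin receptor-like receptor, were at 392 and 448 CPM and at 219 and 500 CPM in control and ISO ILC2. The log2 ratio of Ramp3 was 1.19 (0.90 to 1.49). Calcrl, the CGRP receptor itself, had 36.1 and 28.9 CPM. Nmur1, the neuromedin U receptor, had 7 and 3 UMIs. For Nmur1 a difference between the libraries was not detectable at this depth. Ptgir, the prostacyclin receptor, was at 173 and 95.4 CPM (-0.84). Of 10 tested receptors of this list, 1 was at least 2-fold higher and 0 at least 2-fold lower. All tested genes gave 5.22% and 5.28%.

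In unmixed ILC2, the checkpoint and inhibitory list had the highest median of the 19 lists. It also holds genes that encode no receptor, such as Ctla2a, Ctla2b, Cish, and Socs3. Of 11 tested genes, 4 were at least 2-fold higher and 0 at least 2-fold lower in ISO, where 5.22% and 5.28% of all tested genes were. The 4 were Ctla2a, Ctla2b, Pdcd1, and Socs3, of which Pdcd1 alone encodes a checkpoint receptor. The list had a median log2 ratio of 0.69. The median was -0.04 in all ILC2, and it was 0.79 in NK cells over 6 tested genes and 0.68 in T cells over 4. Ctla2a, a cysteine protease inhibitor first found in activated lymphocytes, was at 662 CPM (613 to 715) in control ILC2, against 4071 CPM (3861 to 4289) in ISO ILC2, 6.15-fold higher (log2 2.62, 2.49 to 2.76). Over all ILC2 it was at 652 and 2153 CPM, a log2 ratio of 1.72. In unmixed ILC2 it had UMIs in 128 of 167 and 81 of 83 cells. After thinning to 1000 UMIs the shares were 37.1% (29.8 to 44.9) and 85.5% (76.1 to 92.3), against 0.707% and 3.45% of B cells. Ctla2a UMIs were thus present in nearly all ISO ILC2. The neighboring Ctla2b was at 33.1 and 223 CPM (2.74, and 1.98 over all ILC2). The genes are close paralogs, so reads may be split between them. NK cells had Ctla2a at 362 and 693 CPM.

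Pdcd1, which encodes the checkpoint receptor PD-1, was at 38.1 CPM (27 to 52.3) in control ILC2, against 223 CPM (176 to 278) in ISO ILC2 (log2 2.54, 1.97 to 3.15). Over all ILC2 the Pdcd1 levels were 36.5 and 121 CPM and the log2 ratio 1.71. In unmixed ILC2 its UMIs came from 14 of 167 and 34 of 83 cells, and 1 control cell held 42.1% of the control UMIs. After thinning to 1000 UMIs, 1.80% of control (0.372 to 5.16) and 15.7% of ISO ILC2 (8.61 to 25.3) had a Pdcd1 UMI, against 0 of 849 and 0 of 29 B cells. In ISO ILC2 thinned to 2000 UMIs, Pdcd1 was found in 16 of 49 Calca-positive cells (32.7%) and in 4 of 34 others (11.8%). These shares rest on few cells and describe that library only. Socs3 was at 22.1 and 124 CPM, but 1 ISO cell held 67.4% of its UMIs. Cd200r1 was at 112 and 214 CPM (0.93), Cish, induced by STAT5, at 214 and 113 CPM (-0.91), and Klrg1 at 100 and 142 CPM (0.51, -0.03 to 1). Prnp, which encodes the prion protein and was named by the size of its difference, was at 13.0 and 171 CPM (3.67).

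**Figure D4:**
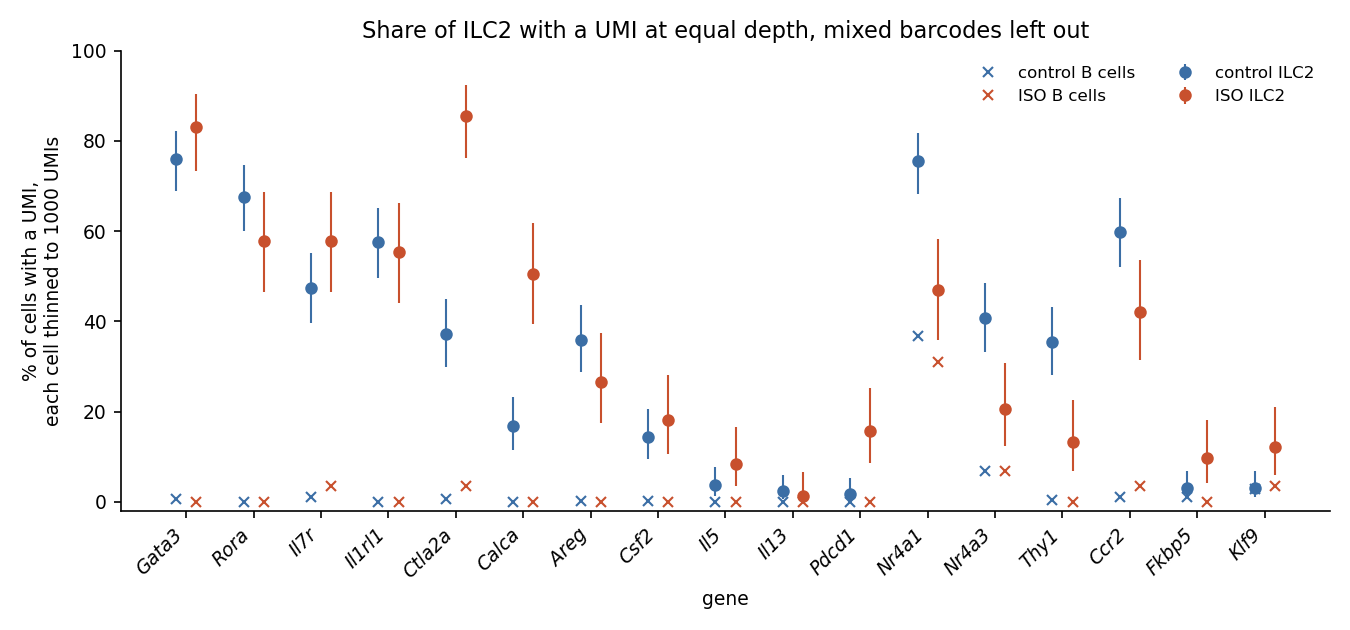
Share of unmixed ILC2 with a UMI of each gene after thinning every cell to 1000 UMIs, in percent, with exact 95% intervals, and crosses for B cells. Calca, Ctla2a, and Pdcd1 lie higher in ISO ILC2 (50.6, 85.5, and 15.7%) than in control ILC2 (16.8, 37.1, and 1.80%), and Nr4a1 and Thy1 lie lower.

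Transcription factors of the lineage mostly differed by less than 2-fold. Gata3 had a log2 ratio of 0.34 (0.21 to 0.47) in unmixed and -0.45 in all ILC2, Rora -0.33 (-0.49 to -0.16), and Lmo4 0.32. Id2, required by all innate lymphoid cells, was at 504 and 798 CPM (0.67). Hlf, a rule gene, was at 155 and 83.8 CPM (-0.87, -1.52 to -0.31), Maf at 237 and 113 CPM (-1.05), and Ikzf2, which encodes Helios, at 212 and 98.3 CPM (-1.09). Maf and Ikzf2 were thus past 2-fold, and Rora and Id2 were not. Gata3 and Hlf chose the cells, so they were also read in cells chosen without each, where the log2 ratio was 0.33 (0.17 to 0.48) for Gata3 and -0.87 for Hlf. Of 21 tested factors, 2 were at least 2-fold higher and 2 at least 2-fold lower in unmixed ILC2, and the median was 0.05. Of all tested genes, 5.22% were higher and 5.28% lower by that measure. The markers outside the rule gave 1 and 1 of 24 with a median of 0.08. Thy1, a surface marker often used to gate these cells, was the lower one, at 436 CPM (396 to 479) and 179 CPM (137 to 230), and found in 35.3% and 13.3% of thinned cells.

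Some genes of the cAMP and activity response were lower. Of 17 tested genes 0 were at least 2-fold higher and 3 at least 2-fold lower in unmixed ISO ILC2, against 5.22% and 5.28% of all tested genes, with a median log2 ratio of -0.24. In T cells, 21 of them in the ISO library, 4 of 16 were at least 2-fold lower. The share over all genes is not given for T cells. The orphan nuclear receptors Nr4a1 and Nr4a3, immediate early genes, were at 1946 and 1029 CPM (-0.92, -1.09 to -0.76) and at 870 and 367 CPM (-1.24, -1.52 to -0.97). Thinned shares of Nr4a1 were 75.4% (68.2 to 81.8) and 47.0% (35.9 to 58.3), against 36.7% and 31.0% of B cells. Fewer ISO ILC2 thus carried Nr4a1 transcripts at equal depth. Fosl2 had a ratio of -0.80, Pde3b -1.03, and the clock gene Per1, at 210 and 95.4 CPM, -1.12. In contrast Rgs2, a regulator of G protein signaling, was at 1166 and 1784 CPM (0.61). Of 24 genes that also respond to tissue dissociation, such as Fos (0.03), Junb (-0.35), and Fosb (-1.01), 1 was at least 2-fold lower and the median was -0.05. Of 20 NF-kB and activation genes 4 were at least 2-fold higher, against 5.22% of all tested genes, and the median was -0.11.

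The glucocorticoid response list was higher in part. In unmixed ILC2, 6 of 13 tested genes were at least 2-fold higher in ISO and 1, Per1, at least 2-fold lower, beside 5.22% and 5.28% of all tested genes, with a median of 0.61. Fkbp5, a cochaperone of the glucocorticoid receptor, was at 52.2 and 133 CPM (1.35, 0.75 to 1.95). Tsc22d3, which encodes GILZ, was at 151 and 335 CPM (1.15), Klf9 at 37.1 and 104 CPM (1.49), and Ddit4 at 31.1 and 116 CPM (1.89). Txnip was at 223 and 465 CPM (1.06) and the chemokine receptor Cxcr4 at 76.2 and 185 CPM (1.28). These 6 genes were thus higher while Per1, a target of the same receptor, was lower. Nr3c1, which encodes the glucocorticoid receptor, was at 462 and 353 CPM (-0.39). In NK cells the same list had a median of -0.23 over 14 tested genes, with Tsc22d3 at 293 and 150 CPM and Fkbp5 at 50.6 and 102 CPM. In T cells it was 0.33 over 9 tested genes. These differences between cell types were not tested, since each has 1 library per group.

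Genes of movement between tissue and blood included Klf2, a factor that supports egress, at 62.2 and 211 CPM (1.76), with 32.9% of ISO UMIs in 1 cell. Ccr2, the receptor for monocyte-attracting chemokines, was at 1073 and 685 CPM (-0.65, -0.86 to -0.44) and in 59.9% and 42.2% of thinned cells. Cxcr6 was at 367 and 254 CPM (-0.52). In this list of 14 tested genes 2 were at least 2-fold higher, Klf2 and Cxcr4, against 5.22% of all tested genes. The list median was 0.02.

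Dividing cells were few in both libraries. Mki67, a marker of cycling cells, was at 97.3 CPM in 10 of 167 control and 14.5 CPM in 2 of 83 ISO ILC2 (-2.62, -4.41 to -1.48), with 41.2% of control UMIs in 1 cell. Top2a was at 94.3 and 31.8 CPM (-1.51) and Stmn1 at 78.2 and 31.8 CPM (-1.24). Of 11 tested cell cycle genes 4 were at least 2-fold lower, against 5.28% of all tested genes, and the median was -0.35. In T cells, 21 of them in the ISO library, 5 of 7 were lower with a median of -1.24. The share over all genes is not given for T cells.

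Metabolic lists differed by less than 2-fold for most genes. Of all tested genes in unmixed ILC2, 5.22% were at least 2-fold higher and 5.28% at least 2-fold lower. In unmixed ILC2 0 of 41 nuclear genes of oxidative phosphorylation passed 2-fold and their median was 0.16. Of 12 glycolytic genes 1 was at least 2-fold higher, Tpi1 (84.3 and 176 CPM), and the median was 0.37, with Pkm at 306 and 506 CPM and Ldha at 615 and 836 CPM. Plin2, which coats lipid droplets, was at 62.2 and 171 CPM (1.46), and Arg1 was at 332 and 422 CPM (0.35). Over all ILC2 the Arg1 ratio was 1.17. Arg1 and Ccr2 belong to the macrophage and monocyte list whose 2% limit set the unmixed ILC2. Over all ILC2 the medians were higher, 0.82 for glycolysis and 1.39 for the interferon response, which was 0.21 over 6 genes of unmixed ILC2. The interferon median over all ILC2 rested on 10 genes. Macrophages had Pkm at 223 and 1533 CPM, and the part of the mixed barcodes in these medians was not tested. Heat shock proteins and chaperones had a median of 0.40 over 26 genes, with Hsp90ab1 at 2028 and 2952 CPM (0.54). Of 11 survival and death genes 3 were at least 2-fold higher, against 5.22% of all tested genes. They were Bcl2l11 (1.42) and Bax (1.06), which promote apoptosis, and Bcl2a1b (1.12), a survival gene.

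Over the whole table, 648 of 4800 genes were at least 2-fold higher and 387 at least 2-fold lower in all ISO ILC2, and 189 and 191 of 3619 in unmixed ILC2. Mitochondrial, ribosomal protein, and hemoglobin genes with Gm26924 took 37.1% of control and 24.4% of ISO ILC2 UMIs, and 37.7% and 31.9% in unmixed ILC2. With totals that leave them out the median gene shifted by -0.26 and -0.13, and the counts became 463 higher and 638 lower, and 125 higher and 253 lower. Higher genes were then 42.1% and 33.1% of those past 2-fold, in place of 62.6% and 49.7%. Differences smaller than these shifts depend on the choice of totals.

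By size in unmixed ILC2, the genes at least as high as in other cells that led in ISO were Ccl17, Prg4, Dcn, Prnp, Calca, Mgl2, Ctla2b, Ctla2a, Pdcd1, and Il5. Prg4 and Dcn came from 1 ISO cell and Mgl2 from 1, while Calca, Ctla2a, Ctla2b, Pdcd1, and Prnp had UMIs in 33 to 81 ISO cells, of which 7 held 50% of the Calca and 8 held 50% of the Pdcd1 UMIs. Those that led in the control were Ccl1, AI504432, Stab2, Gm15564, Spty2d1, Gm15710, Ptp4a1, Rpl5-ps1, Lars2, and Gm11361. Stab2, a scavenger receptor, was at 122 and 26.0 CPM (-2.16), against 4.06 and 0.403 CPM in other cells. Lars2, a mitochondrial tRNA synthetase, was at 1833 and 572 CPM (-1.68), and in other cells it was at 898 and 174 CPM. It was thus lower across the ISO library and not in ILC2 alone. Gm15564 is annotated as antisense, and several others are pseudogenes whose reads may belong to near-identical copies.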

How the data were processed

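CD45+ heart cells of 1 control and 1 ISO library were measured by scRNA-Seq. The submitters' processing notes name bcl2fastq 2.19.1.403, UMI-tools 1.0.0, STAR 2.7.3a, featureCounts 1.6.4 of Subread, and the mm10 build, and the study's methods give STAR as the aligner and featureCounts as the counter. The values the authors deposited are UMI counts for each gene in each barcode, not normalized. Strand use in counting was not given in the sources used here.

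The study's cell filters were applied, which kept 5641 of 5927 and 5437 of 5514 barcodes from 47382455 and 58495112 UMIs. UMIs were summed over ILC2 per library, and 0.5 UMI was added for log2 ratios of genes with at least 50 UMIs. With 1 library per group no test was run, and counts have exact Poisson, shares exact Clopper-Pearson, and ratios exact binomial 95% intervals. T, NK, B cells, and macrophages were picked by at least 3 UMIs of Cd3d and Cd3e, 4 of Ncr1, Klrb1c, and Klre1, 6 of Cd79a, Cd79b, and Ms4a1, or 20 of C1q genes, with at most 2 UMIs of the rule genes and the same caps for the other lineages. Comparator T, NK, and B cells also had under 2% macrophage and monocyte UMIs where levels, depths, or list medians are given. Cells were thinned at random to 1000 or 2000 UMIs without replacement. A share of 0 allows up to 3 counts.

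Genes named are the rule genes, Il2ra, and Csf2, members of 19 lists, the 10 largest log2 ratios in each direction (higher library at 100 CPM and 50 UMIs or more), the same for genes at least as high as in other cells, and the 20 highest over other cells. A few genes below the UMI minimum are given as UMIs. The members, lists, and limits were chosen with earlier results of these data known. Alternatives varied the rule, caps, filters, totals, weights, and thinning. Scripts used Python 3.11.15, numpy 2.4.6, scipy 1.17.1, pandas 2.3.3, and matplotlib 3.10.9. The ratio step was tested on simulated counts, and the thinning step on totals and expected counts of kept control cells.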

Additional observations from a re-analysis of the deposited data

How the results depend on the processing

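The log2 ratio of ILC2 shares (ISO over control, -0.47) moved to -0.95 without barcodes with 2% macrophage and monocyte UMIs, -0.96 in unmixed ILC2, and -1.03 with a limit of 1%, and it turned to 1.19 with ILC2, T, and NK cells as the denominator. The numbers of genes at least 2-fold higher and lower, 648 and 387, became 1110 and 704 with at least 20 UMIs, 396 and 230 with at least 100, 161 and 128 with cells thinned to 2000 UMIs, 387 and 240 with a rule of 10 UMIs per 10000, and 190 and 196 without barcodes with 2% macrophage and monocyte UMIs. With the other totals 638 genes were lower. In unmixed ILC2 they were 189 and 191, with the other totals 125 and 253, with the 1% limit 141 and 191, and thinned 51 and 74. Fewer genes reach the minimum with fewer UMIs, and the cause of the other moves was not tested. The unmixed settings were chosen after seeing the data. Of 396 comparisons for 32 genes, 202 stayed within the counting interval, 194 moved, and 0 changed sign past 2-fold. Of 266 for 19 list medians, 220 stayed, 45 moved, and 1 was counted as reversed. That was the interferon response, at -0.12 in thinned unmixed ILC2 with 1 gene. Other medians differed in sign between all and unmixed ILC2 without being counted so. Among them were the checkpoint and inhibitory list (-0.04 and 0.69), the ILC2 markers outside the rule (-0.65 and 0.08), and the transcription factors (-0.45 and 0.05). Of 12 shares of cells, 5 moved between 1000 and 2000 UMIs. With 83 unmixed ISO cells, transcripts with a few UMIs (Il13, Il4, Nmur1) are limited by depth.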

Other observations

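Several further genes were also read in unmixed ILC2. Vipr2, a receptor for vasoactive intestinal peptide, had 4 UMIs in control and 8 in ISO ILC2, or 4.01 CPM (1.09 to 10.3) and 23.1 CPM (9.99 to 45.6). Pard3, a polarity protein high in ILC2 over other cells, was at 108 and 211 CPM, a log2 ratio of 0.97. Cntn1, an adhesion molecule, was at 87.3 and 26.0 CPM (-1.68), and Runx1t1, a transcriptional corepressor, had one of the lowest ratios in all ILC2, at 120 and 23.4 CPM. Hs3st1, a heparan sulfate sulfotransferase, was at 491 and 743 CPM (0.60) against 38.7 and 7.67 CPM in other cells.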
